A study of Mus musculus with 40 samples.

Results

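The interaction of Flt3-ITD and Runx1 heterozygosity was read in RNA-seq of mouse hematopoietic progenitor cells taken at 14 days of age (P14). The question was whether the effect of Flt3-ITD on each gene differed between progenitors with a heterozygous Runx1 mutation and progenitors without one. The members are 16 of the 40 samples of the series, 4 libraries in each of 4 P14 groups. One group carried FLT3-ITD together with Runx1-HET and is called the double mutant here. The others carried Runx1-HET alone, FLT3-ITD alone, or were wild type. For each gene the interaction was the log2 difference between double mutant and Runx1-HET minus the log2 difference between Flt3-ITD and wild type. A positive value means that Flt3-ITD acted more upward in the Runx1-HET background, and a negative value that it acted more downward there. The 8 P14 libraries with the NUP98-HOXD13 fusion (NHD13), with and without Flt3-ITD, entered the same fit and give a Flt3-ITD effect in libraries that the interaction does not use. The labels give the source as hematopoietic progenitor/MPP (multipotent progenitor) and do not give the strain, the sorting markers, the zygosity of Flt3-ITD or how the Runx1 allele was altered.

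FLT3 is a receptor tyrosine kinase of early blood progenitors. Its ligand supports multipotent cells that lean toward the lymphoid and myeloid lineages. An internal tandem duplication (ITD) lets the receptor signal without ligand, with strong activation of STAT5 and MAPK. RUNX1 is the DNA-binding subunit of core-binding factor, which it forms with CBFB. It is needed for the first hematopoietic stem cells and acts again in B, T, megakaryocytic and myeloid differentiation. Alterations of both genes are frequent in acute myeloid leukemia. In mouse progenitors, lymphoid priming is the low-level transcription of Dntt, Il7r and the Rag genes in cells that still have several fates.

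The 16 libraries held 13.7 to 27.3 M counts (median 19.2 M). Nothing in the labels ties the 4 libraries of a group to different mice. The p-values therefore cover the spread among libraries, which may be technical. Progenitor markers were present in every library. Levels are given as CPM, counts scaled to library size. Kit lay at 486 to 707 CPM in the double mutant, 772 to 1090 in Runx1-HET, 734 to 882 in Flt3-ITD and 740 to 1170 in wild type. Cd34 lay between 1740 and 2420 CPM over all 16 libraries. More counts from Y-linked genes than from Xist were found in 2 of 4 double-mutant libraries, 1 of 4 Runx1-HET libraries, 4 of 4 Flt3-ITD libraries and 1 of 4 wild-type libraries. Flt3-ITD library 2 stood above the other 3 of its group in B-lineage genes, and values without it are given beside those genes.

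The promoters of Il7r, Dntt, Ebf1 and Spp1 were read because the double mutant departed from both single mutants in these genes. Only the windows that held a motif match are printed. Il7r encodes the interleukin-7 receptor alpha chain, Ebf1 encodes a transcription factor that starts the B-cell program, and Spp1 encodes osteopontin. The windows run from 250 bases before to 50 bases after a RefSeq start in GRCm38.p6. They are at chr15:9529827-9530126 on the minus strand for Il7r, chr11:44617850-44618149 on the plus strand for Ebf1 and chr5:104434861-104435160 on the plus strand for Spp1. Capitals mark matches on either strand to TGTGGT, a RUNX motif, or to TTCNNNGAA, a STAT motif that reads the same on both strands. No 2 matches overlap in these windows.
Il7r: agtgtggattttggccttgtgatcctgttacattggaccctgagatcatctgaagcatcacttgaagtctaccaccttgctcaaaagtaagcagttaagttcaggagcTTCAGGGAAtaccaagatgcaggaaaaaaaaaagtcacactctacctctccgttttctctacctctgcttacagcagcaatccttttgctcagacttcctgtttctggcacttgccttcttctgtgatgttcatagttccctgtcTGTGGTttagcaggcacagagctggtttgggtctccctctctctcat
Ebf1: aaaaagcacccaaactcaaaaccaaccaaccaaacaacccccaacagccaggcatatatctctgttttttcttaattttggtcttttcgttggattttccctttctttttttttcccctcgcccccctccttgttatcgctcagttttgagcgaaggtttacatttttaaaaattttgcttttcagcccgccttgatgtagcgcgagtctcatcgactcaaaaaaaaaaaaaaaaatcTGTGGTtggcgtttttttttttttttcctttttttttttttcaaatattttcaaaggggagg
Spp1: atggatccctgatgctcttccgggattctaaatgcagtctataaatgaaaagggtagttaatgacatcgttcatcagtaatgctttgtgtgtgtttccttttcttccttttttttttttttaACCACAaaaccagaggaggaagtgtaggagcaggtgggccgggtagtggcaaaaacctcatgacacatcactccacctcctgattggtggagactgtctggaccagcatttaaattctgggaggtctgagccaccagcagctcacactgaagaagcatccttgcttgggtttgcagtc
The Il7r window held 1 RUNX match, just past its start, and 1 STAT match. The Ebf1 window held 1 RUNX match just ahead of its start, and the Spp1 window held 1 RUNX match on the reverse strand. The windows of Dntt and of a second RefSeq start of Ebf1 and of Spp1 held neither. Over 13317 windows of 10459 tested genes with a RefSeq promoter, 13.2% held the RUNX motif and 6.94% the STAT motif. Over 261 windows of 179 genes that passed the interaction test, the shares were 17.2% and 8.43%. Among the passing genes, the share with a RUNX match was 13.4% for genes in which the double mutant rose beyond the sum of the single effects (synergy, positive) and 18.6% for genes in which it fell beyond that sum (synergy, negative). For genes in which the double mutant fell well short of the larger single effect (opposition), it was 25.7% of 35 windows where the interaction was positive and 12.5% of 48 windows where it was negative. A match is a description of the letters and not a binding site.

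Both targeted genes were measured as whole-gene counts, which do not read the altered allele. Flt3 (ENSMUSG00000042817, chromosome 5, 147330741 to 147400489, minus strand, GRCm38) had 636, 604, 613 and 554 CPM in the double mutant. It had 992, 1200, 1180 and 950 CPM in Runx1-HET, 702, 777, 701 and 752 CPM in Flt3-ITD, and 1510, 1360, 1430 and 1190 CPM in wild type. The 4 groups were ordered double mutant, Flt3-ITD, Runx1-HET and wild type, and only Runx1-HET and wild type overlapped. Flt3 fell with Flt3-ITD by 0.84 ± 0.09 (log2 ± SE, adjusted p = 2.26e-08) in the Runx1-HET background and by 0.90 ± 0.09 (adjusted p = 2.34e-08) in wild type. Its interaction was 0.06 ± 0.12 (adjusted p = 0.91). Runx1 (ENSMUSG00000022952, chromosome 16, 92601466 to 92826149, minus strand) had 84.7, 75.9, 77.1 and 81.9 CPM in the double mutant and 46.6, 49.6, 54.5 and 58.1 CPM in Runx1-HET. It had 66.5, 54.2, 49.9 and 66.7 CPM in Flt3-ITD and 39.4, 52.1, 49.7 and 57.5 CPM in wild type. The double mutant lay above every library of the other groups. The libraries labelled Runx1-HET overlapped wild type, with a difference of 0.07 ± 0.13 (adjusted p = 0.916), so whole-gene counts do not check that label. Runx1 rose with Flt3-ITD in the Runx1-HET background (0.61 ± 0.13, adjusted p = 0.000823). In wild type that difference was 0.26 ± 0.13 (adjusted p = 0.234), and the interaction was 0.36 ± 0.18 (adjusted p = 0.459).

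Flt3-ITD changed 2140 of 14394 tested genes in the Runx1-HET background (14.9%, with 963 higher and 1177 lower) and 1238 in the wild-type background (8.6%, with 553 higher and 685 lower). Read the other way, Runx1 heterozygosity changed 1037 genes in the Flt3-ITD background (7.2%, with 476 or 3.31% higher and 561 or 3.9% lower) and 112 in the wild-type background (0.778%, with 37 or 0.257% higher and 75 or 0.521% lower). The double mutant differed from wild type in 3264 genes (22.7%). Counts of calls in separate comparisons do not show that the effects differ, so the difference itself was tested gene by gene. The interaction passed for 242 genes (1.68%), of which 93 were positive (0.646%) and 149 negative (1.04%). At an unadjusted p under 0.05 there were 1634 genes. The median size of the interaction was 1.51 on the log2 scale over the 242 genes and 0.19 over all tested genes, and 166 of the 242 had a size of at least 1. The sign was the same for 240 of the 242 when differences were taken in CPM. The exceptions were Ccr9 and Trbc2, negative on the log2 scale and positive in CPM. Without double-mutant library 3, 401 genes passed, including 230 of the 242. Adding a term for libraries with more Y-linked than Xist counts left 201 genes, 188 of them shared, and left 691 genes for Flt3-ITD in wild type.

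Genes that passed were sorted by how the double mutant compared with the single mutants, all against wild type. Synergy means that the double mutant deviated further than either single mutant and than the sum of their log2 effects, on the side of the interaction. Saturation means that both single effects had the same sign and that the double mutant fell short of their sum while differing from the larger single effect by no more than the size of the smaller one. By this rule a saturation gene can lie nearer to wild type than either single mutant. Masking means that the single effects had opposite signs and that the double mutant lay between their sum and the larger one, and it held 0 genes. Opposition covers the rest. Where the single effects had the same sign, the double mutant then fell short of the larger one by more than the size of the smaller. Where they had opposite signs, it lay beyond the sum on the side of the smaller one, so genes that keep the smaller single effect and lose the larger are in this class. Synergy held 153 genes, with 58 positive and 95 negative interactions. Opposition held 80 genes, with 30 positive and 50 negative, and saturation held 9 genes, with 5 positive and 4 negative. Among the 153 synergy genes, 97 were called in neither single mutant while all 153 were called in the double mutant. The class rule favours such counts, since it asks for a double mutant further from wild type than either single mutant. In 69 of the 153 the double mutant lay on the other side of wild type from the sum of the single effects. Among the 80 opposition genes, the double mutant lay on the other side of wild type from the sum in 59, and within 0.25 of wild type in 32. In 48 of the 50 opposition genes with a negative interaction, both single mutants lay above wild type. The rule shapes this count, since it cannot place a gene with both single mutants below wild type there.

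**Figure D1:**
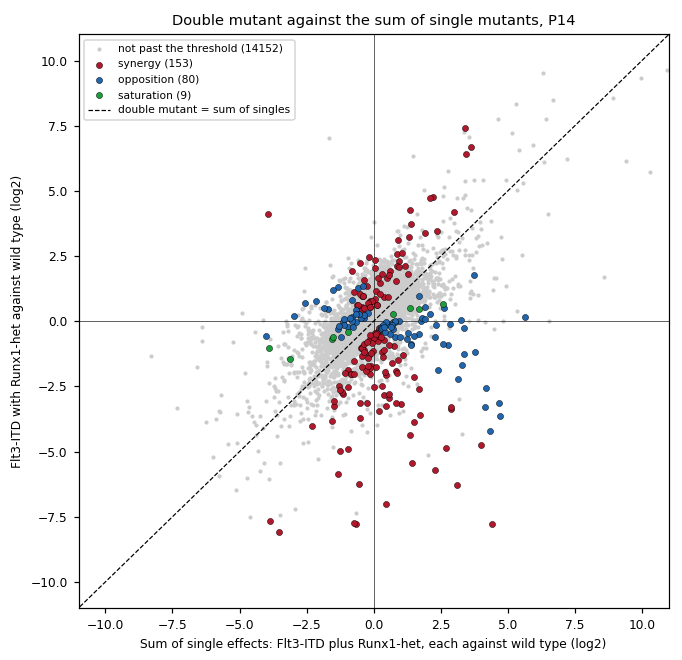
Each point is 1 of 14394 tested genes at P14. The x axis is the sum of the Flt3-ITD and the Runx1-het log2 effects, each against wild type, and the y axis is the log2 difference of the double mutant from wild type. The dashed line marks an additive outcome. Colours mark the 153 synergy, 80 opposition and 9 saturation genes. Many synergy genes lie far below the line, and most opposition genes with a positive sum lie near or below 0 on the y axis.

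Genes of lymphoid priming were lowest in the double mutant, beyond what either single mutant showed. Of 20 tested genes of multipotent and lymphoid priming, 11 had a negative interaction and 0 a positive one, with a median of -2.14 on the log2 scale against 0.006 over all tested genes. At an unadjusted p under 0.05 there were 14 negative and 0 positive, and DESeq2 called 12 negative and 0 positive. The background for the adjusted edgeR calls was 1.04% of genes negative. Over all 14394 tested genes, 1634 reached an unadjusted p under 0.05 and DESeq2 called 374, both directions together. In the same list, Flt3-ITD lowered 16 of 20 genes in the Runx1-HET background (background 8.18%) and 5 of 20 in wild type (background 4.76%). The 11 genes were Ccr9, Cd79a, Dntt, Ebf1, Igll1, Il12a, Il7r, Rag1, Rag2, Satb1 and Vpreb1. The count was 7 with limma-voom. The summed level of the 21 listed genes was 1210 to 1350 CPM in the double mutant, 2970 to 3580 in Runx1-HET, 2240 to 2840 in Flt3-ITD and 3110 to 3440 in wild type. In bulk libraries, fewer cells of a type and less RNA per cell cannot be told apart.

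Il7r (ENSMUSG00000003882, chromosome 15, 9505788 to 9530176, minus strand) encodes the receptor chain through which interleukin-7 supports early B and T cells. It had 0, 0.123, 0.149 and 0.176 CPM in the double mutant and 34.7, 40.8, 28.2 and 29.9 CPM in Runx1-HET. It had 4.49, 17.6, 5.74 and 7.33 CPM in Flt3-ITD and 17.8, 12.1, 14 and 14.6 CPM in wild type. The double mutant was nearly empty of Il7r, with 8 counts over its 4 libraries, and Runx1-HET was the highest group without overlap. Flt3-ITD overlapped wild type through library 2 alone. Flt3-ITD lowered Il7r by 8.20 ± 0.53 in the Runx1-HET background (adjusted p = 4.82e-11). In wild type the difference was -0.74 ± 0.31 (adjusted p = 0.162). The interaction was -7.46 ± 0.65 (adjusted p = 4.53e-07).

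Dntt (ENSMUSG00000025014, chromosome 19, 41029275 to 41059525, plus strand) encodes terminal deoxynucleotidyl transferase, which adds bases at antigen-receptor joints. It had 103, 145, 95.4 and 95.2 CPM in the double mutant and 1290, 1210, 1110 and 1060 CPM in Runx1-HET. It had 623, 729, 706 and 592 CPM in Flt3-ITD and 928, 561, 771 and 823 CPM in wild type. The double mutant was far below the rest, and Flt3-ITD and wild type overlapped. Its interaction was -3.19 ± 0.28 (adjusted p = 5.89e-07), from a fall of 3.41 ± 0.21 in the Runx1-HET background and a difference of -0.22 ± 0.19 (adjusted p = 0.586) in wild type. At this level the Dntt value rests on many reads in every group.

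Rag1 and Rag2 encode the recombinase that cuts antigen-receptor genes and lie beside each other on chromosome 2 (101638282 to 101649501, minus strand, and 101624718 to 101632529, plus strand). Rag1 had 0.142, 0.245, 0.0498 and 0.176 CPM in the double mutant, 15.1, 19.4, 8.73 and 15 in Runx1-HET, 5.15, 19.3, 2.21 and 5.54 in Flt3-ITD, and 3.63, 6.03, 6.16 and 10.9 in wild type. Rag2 had 5.29, 6.07, 6.33 and 6.62 CPM in the double mutant, 62.7, 72.1, 59.8 and 54.6 in Runx1-HET, 20.6, 61.6, 21.5 and 30.9 in Flt3-ITD, and 39.7, 20.6, 21.8 and 26.2 in wild type. Both genes were below all other groups in every double-mutant library. The interaction was -6.84 ± 1.01 (adjusted p = 0.000463) for Rag1 and -3.67 ± 0.38 (adjusted p = 4.12e-06) for Rag2. Rag2 also rose in Runx1-HET against wild type (1.202 ± 0.25, adjusted p = 0.0194). Without Flt3-ITD library 2 the interactions were -5.95 and -3.20, and both still passed.

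**Figure D2:**
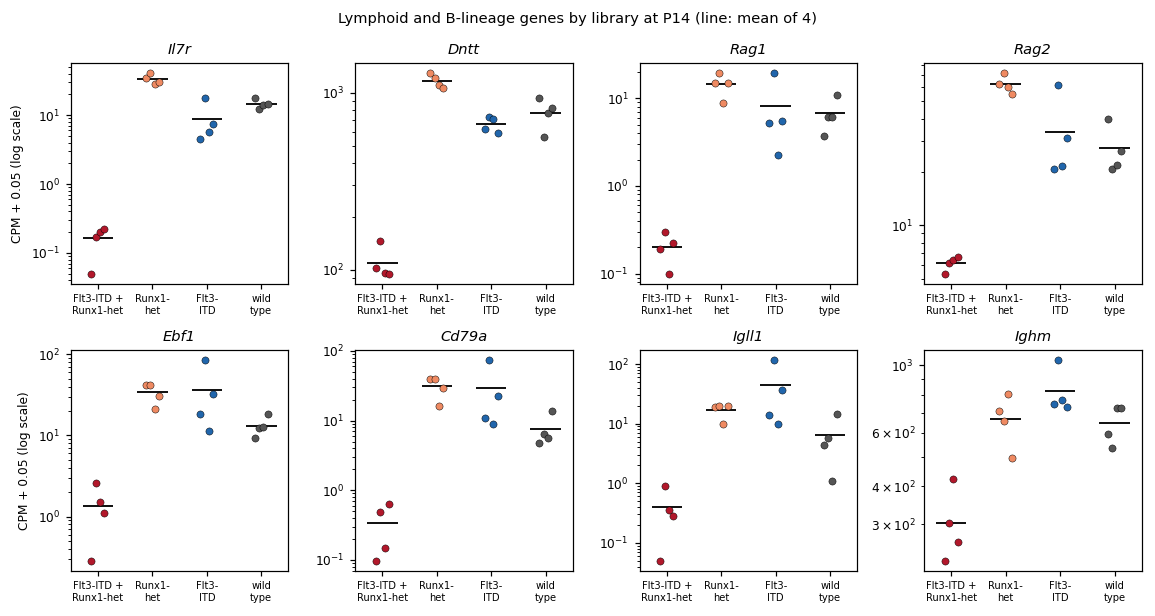
Each panel shows 1 lymphoid or B-lineage gene, with CPM plus a small offset on a log axis and 1 point for each of the 4 libraries of a group. Groups run from the double mutant at the left to wild type at the right, and lines are means of 4. In all 8 panels the double-mutant libraries lie below every library of the other groups, for Ighm with 422 CPM in the highest double-mutant library and 498 CPM in the lowest Runx1-HET library.

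Ebf1, Cd79a, Igll1 and Ighm of the B lineage were also lowest in the double mutant. Ebf1 (ENSMUSG00000057098, chromosome 11, 44617317 to 45008091, plus strand) had 0.236, 2.51, 1.45 and 1.05 CPM in the double mutant and 41.4, 42.1, 21.4 and 30.9 CPM in Runx1-HET. It had 18.5, 84.5, 11.4 and 32.4 CPM in Flt3-ITD and 9.21, 12.3, 12.8 and 18.1 CPM in wild type. Double-mutant libraries were below all others, and both single mutants reached above wild type. Flt3-ITD lowered Ebf1 by 4.73 ± 0.70 in the Runx1-HET background (adjusted p = 6.74e-05). In wild type the difference was 1.49 ± 0.55 (adjusted p = 0.11), and the interaction was -6.22 ± 0.89 (adjusted p = 0.000449). Without Flt3-ITD library 2 the Ebf1 interaction was -5.40 and still passed. Cd79a, a signalling chain of the B-cell receptor, had 0.0472, 0.429, 0.0997 and 0.586 CPM in the double mutant, 39.3, 39.8, 15.9 and 29.1 in Runx1-HET, 10.8, 73.4, 8.84 and 22.7 in Flt3-ITD, and 4.73, 6.29, 5.56 and 13.7 in wild type. Its interaction was -8.76 ± 1.19 (adjusted p = 0.000319), and -7.72 without Flt3-ITD library 2, which still passed. With limma-voom its adjusted p was 0.0635.

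Igll1 and Vpreb1 encode the surrogate light chain of the pre-B-cell receptor. Both genes fell into opposition because both single mutants lay above wild type and the double mutant below it by less than their sum. Igll1 had 0, 0.858, 0.299 and 0.234 CPM in the double mutant, 19.2, 19.9, 9.74 and 19.7 in Runx1-HET, 13.8, 116, 9.98 and 36.5 in Flt3-ITD, and 4.38, 5.62, 1.03 and 14.2 in wild type. Wild type reached down near the double mutant, and Flt3-ITD library 2 was the highest of all 16. The interaction was -8.53 ± 1.55 for Igll1 (adjusted p = 0.00431) and -4.64 ± 0.85 for Vpreb1 (adjusted p = 0.00264). Igll1 was lost with limma-voom (adjusted p = 0.159). Without Flt3-ITD library 2 the interactions were -7.39 for Igll1 and -3.70 for Vpreb1, and both passed. Vpreb1 has a near-identical copy, Vpreb2, and reads may be split between them. The surface antigen Ly6d, which marks early B-lineage progenitors, was at -7.97 ± 1.33 (adjusted p = 0.00188) and was lost with limma-voom (adjusted p = 0.208). The heavy-chain gene Ighm was at -1.48 ± 0.24 (adjusted p = 0.00104), with 228 to 422 CPM in the double mutant, 498 to 803 in Runx1-HET, 729 to 1040 in Flt3-ITD and 536 to 725 in wild type. Without Flt3-ITD library 2, Ly6d was at -6.73 and Ighm at -1.34, and both passed. Chosen after their values were seen, Blk, a B-cell kinase, and Pou2af1, a B-cell coactivator, had 0 counts in all 4 double-mutant libraries. Blk had 84 counts over Runx1-HET, 142 over Flt3-ITD and 37 over wild type, and Pou2af1 had 578, 419 and 98 in the same groups.

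The list of B-cell markers shares Cd79a and Ighm with the genes above, so its values are not separate from theirs. Of its 5 tested members, 3 had a negative interaction (Cd79a and Ighm among them, background 1.04%). The summed level of the 8 markers was 336 to 552 CPM in the double mutant, 672 to 1100 in Runx1-HET, 881 to 1330 in Flt3-ITD and 690 to 908 in wild type. Ighm alone, with 228 to 422 CPM in the double mutant and 498 to 803 in Runx1-HET, made up most of this sum. Ms4a1, a marker of mature B cells, was at 0 in every library of the double mutant, Runx1-HET and Flt3-ITD, and Pax5 was at 0 in every double-mutant library. Whether the share of B-committed cells differed between groups was not tested.

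Ccr9, Trbc2 and Satb1, linked to T cells and the thymus, were lowest in the double mutant too, but the summed T and NK cell markers were not. Of 6 tested T and NK cell markers, 1 had a negative interaction (Trbc2, background 1.04%) and 0 a positive one, with a median of -1.64. Flt3-ITD lowered 3 and raised 1 of the 6 in the Runx1-HET background (background 8.18% and 6.69%). In wild type it lowered 2 and raised 0 (background 4.76% and 3.84%). A sum in CPM mostly follows its most abundant members and need not follow this median. The summed level of the 10 listed markers was 267 to 391 CPM in the double mutant, 157 to 179 in Runx1-HET, 293 to 379 in Flt3-ITD and 238 to 320 in wild type, so the double mutant overlapped Flt3-ITD and wild type and lay above Runx1-HET. The T-cell receptor gamma segment Tcrg-C1 was highest in the double mutant. Ccr9, a chemokine receptor that guides progenitors to the thymus, had 0.708, 0.184, 0.199 and 0.117 CPM in the double mutant, 36.2, 29.5, 14.4 and 9.33 in Runx1-HET, 11.4, 18.3, 10.1 and 13.1 in Flt3-ITD, and 66.2, 82.6, 58.6 and 55.3 in wild type. Both single mutants were below wild type, overlapping each other, and the double mutant was far below them. Ccr9 fell with Flt3-ITD by 6.10 ± 0.48 in the Runx1-HET background and by 2.32 ± 0.32 in wild type, with an interaction of -3.79 ± 0.61 (adjusted p = 0.000865). Under limma-voom its adjusted p was 0.0707. Mean Ccr9 went from 22.4 to 0.302 CPM with Flt3-ITD in the Runx1-HET background and from 65.7 to 13.2 CPM in wild type. In CPM the fall was therefore smaller in Runx1-HET, opposite to the log2 interaction. Trbc2, a constant segment of the T-cell receptor beta chain, had 0.0472, 0, 0.0997 and 0.234 CPM in the double mutant, 22.6, 15.8, 13.2 and 8.39 in Runx1-HET, 2.37, 7.2, 3.64 and 3.92 in Flt3-ITD, and 24.4, 30.3, 27 and 26.4 in wild type. Its interaction was -4.56 ± 0.59 (adjusted p = 3e-05), and reads may be shared with its copy Trbc1. Mean Trbc2 went from 15 to 0.0953 CPM with Flt3-ITD in Runx1-HET and from 27 to 4.28 CPM in wild type. Its fall in CPM was also smaller in Runx1-HET. Satb1, a chromatin organizer of lymphoid cells, was at -1.09 ± 0.16 (adjusted p = 0.000152), with 38 to 44.8 CPM in the double mutant, 99.7 to 118 in Runx1-HET, 74.9 to 95.8 in Flt3-ITD and 76 to 117 in wild type. Il12a, a subunit of interleukin-12, was at -0.91 ± 0.23 (adjusted p = 0.0324), and was lost in 16 of 24 alternatives.

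The Flt3-ITD effect on these genes in the NHD13 background gives a further value from other libraries, without a test of the difference from the Runx1-HET background. There, Dntt fell (-0.725 ± 0.20, adjusted p = 0.0271). Il7r was at -0.71 ± 0.31 (adjusted p = 0.216), Rag2 at -0.24 ± 0.25 (adjusted p = 0.689) and Ebf1 at 1.34 ± 0.54 (adjusted p = 0.176). Ly6d (2.69 ± 0.74, adjusted p = 0.0331) and Vpreb1 (2.06 ± 0.60, adjusted p = 0.0388) rose. Over all 242 genes, Flt3-ITD raised 25 and lowered 31 in the NHD13 background, where 898 of all tested genes were called (6.24%, with 2.65% higher and 3.58% lower).

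**Figure D3:**
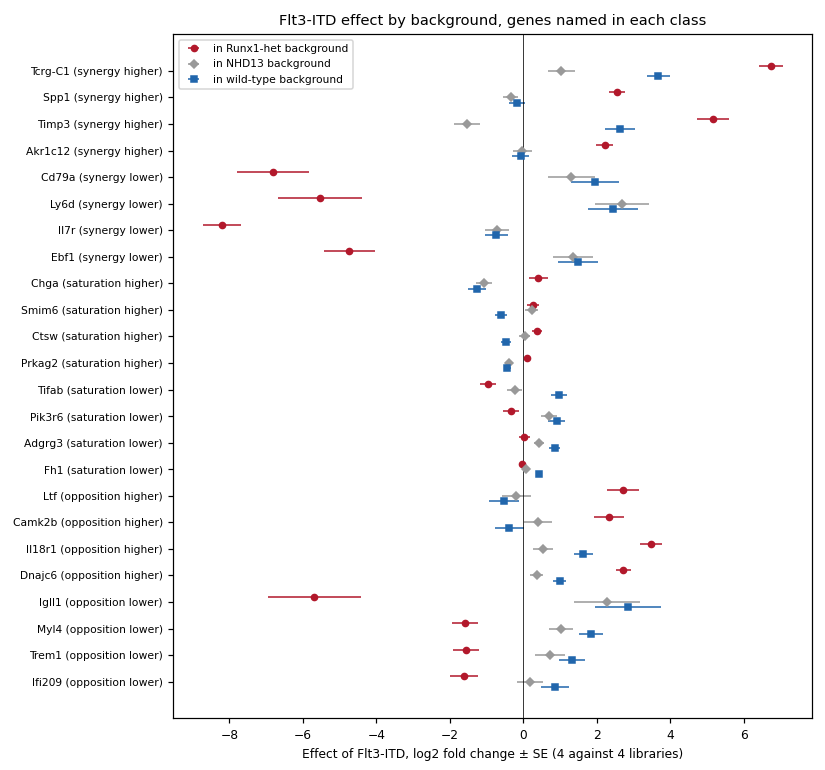
The x axis is the log2 fold change of Flt3-ITD with its SE, 4 against 4 libraries, and each row is a gene named in its class. Red circles are the effect in the Runx1-het background, grey diamonds in the NHD13 background and blue squares in the wild-type background. For Il7r the red circle is at -8.20, the grey diamond at -0.71 and the blue square at -0.74.

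In the other direction, 58 synergy genes were raised in the double mutant beyond both single mutants. Spp1 (ENSMUSG00000029304, chromosome 5, 104435118 to 104441050, plus strand), a secreted matrix protein and cytokine, had 22.8, 22.3, 27.6 and 34.6 CPM in the double mutant. It had 6.31, 4.38, 4.64 and 3.18 CPM in Runx1-HET, 4.93, 4.33, 5.44 and 5.54 in Flt3-ITD, and 5.69, 4.4, 5.47 and 7.53 in wild type. The 3 other groups overlapped one another and the double mutant stood apart. Flt3-ITD raised Spp1 by 2.54 ± 0.22 in the Runx1-HET background (adjusted p = 8.18e-10). In wild type the difference was -0.18 ± 0.22 (adjusted p = 0.701), and the interaction was 2.72 ± 0.31 (adjusted p = 2.52e-06).

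Akr1c12, an aldo-keto reductase, had 35.4, 22.7, 25.1 and 48.1 CPM in the double mutant, 7.61, 6.13, 6.66 and 7.92 in Runx1-HET, 4.56, 6.98, 6.75 and 6.61 in Flt3-ITD, and 5.24, 6.65, 6.55 and 7.74 in wild type. The double mutant again stood alone, with an interaction of 2.29 ± 0.32 (adjusted p = 7.22e-05). Akr1c genes are close copies and reads may be shared among them. Chosen after their values were seen, the neighbouring family member Akr1c13 was at 1.97 ± 0.20 (adjusted p = 5.89e-07) and Ndrg2, a member of the N-myc downstream-regulated family, at 1.996 ± 0.21 (adjusted p = 5.89e-07). Ndrg2 had 78.2, 74.9, 81.5 and 74.2 CPM in the double mutant, 22.9, 15.2, 16 and 12.6 in Runx1-HET, 18.8, 24.1, 21 and 23.7 in Flt3-ITD, and 17.8, 19.4, 20.8 and 17 in wild type.

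Some synergy genes already rose with Flt3-ITD alone and rose further in the double mutant. Tcrg-C1, a constant segment of the T-cell receptor gamma chain with close copies, had 66, 81.1, 105 and 96.4 CPM in the double mutant, 0.804, 0.691, 0.606 and 1.15 in Runx1-HET, 11.5, 6.6, 11.5 and 13.2 in Flt3-ITD, and 1.71, 0.562, 0.474 and 0.558 in wild type. It rose by 6.74 ± 0.32 with Flt3-ITD in the Runx1-HET background and by 3.68 ± 0.31 in wild type, with an interaction of 3.06 ± 0.48 (adjusted p = 0.000383). Timp3, an inhibitor of matrix metalloproteinases, had an interaction of 2.54 ± 0.60 (adjusted p = 0.0316) and 42.7 to 53 CPM in the double mutant, 0.691 to 2.52 in Runx1-HET, 5.68 to 13.6 in Flt3-ITD and 1.19 to 2.42 in wild type. Its call was lost in 12 of 24 alternatives, and every double-mutant library lay above every other library. In the NHD13 background Flt3-ITD lowered it (-1.53 ± 0.35, adjusted p = 0.00854). Ifitm1, an interferon-induced membrane protein that is also listed among stem cell genes, had 2950, 3110, 3290 and 3380 CPM in the double mutant, 274, 220, 208 and 201 in Runx1-HET, 1910, 1830, 2240 and 1900 in Flt3-ITD, and 263, 288, 280 and 340 in wild type. Flt3-ITD raised it in every background, by 3.82 ± 0.12 in Runx1-HET, 3.84 ± 0.12 in NHD13 and 2.75 ± 0.11 in wild type, and the interaction with Runx1-HET was 1.07 ± 0.15 (adjusted p = 6.44e-05). Il2ra, the interleukin-2 receptor alpha chain and a STAT5-responsive gene, chosen after its values were seen, had 32.1, 22.4, 28.9 and 35.4 CPM in the double mutant and at most 1.53 CPM in any of the other 12 libraries.

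**Figure D4:**
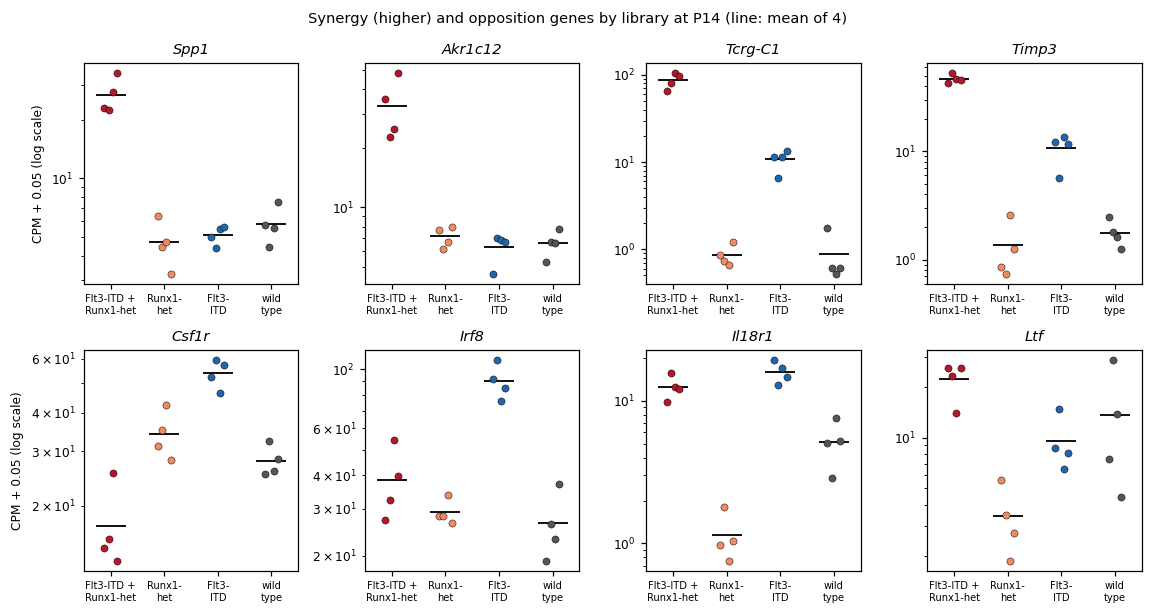
Each panel shows 1 gene, with CPM plus a small offset on a log axis and 1 point per library. Groups run from the double mutant at the left to wild type at the right, and lines are means of 4. Spp1, Akr1c12, Tcrg-C1 and Timp3 are highest in the double mutant. Csf1r and Irf8 are highest in Flt3-ITD, and Il18r1 and Ltf are lowest in Runx1-HET.

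Genes downstream of Flt3 signalling held few interaction calls. Of 14 STAT5 targets, 1 had a positive interaction (background 0.646%) and 1 a negative one (background 1.04%), with a median of 0.12. Pim2, a survival kinase, had 47.9, 47.8, 58.7 and 63.6 CPM in the double mutant, 9.09, 12.8, 17.1 and 13.7 in Runx1-HET, 30, 20.7, 26.1 and 23.6 in Flt3-ITD, and 15.2, 15.3, 16.6 and 22.3 in wild type. Its interaction was 1.51 ± 0.26 (adjusted p = 0.000712), and Flt3-ITD also raised it in NHD13 (1.26 ± 0.19, adjusted p = 4.14e-05). Ccnd2, a D-type cyclin, was at -0.51 ± 0.13 (adjusted p = 0.0447) and was lost in 13 of 24 alternatives. Of 12 MAPK feedback genes, 9 fell with Flt3-ITD in the Runx1-HET background (background 8.18%) and 8 in wild type (background 4.76%), and 1 passed the interaction, with a negative sign (background 1.04%). That gene was Dusp6, a phosphatase of ERK, with 17.7, 11.1, 6.98 and 13.8 CPM in the double mutant, 185, 225, 163 and 163 in Runx1-HET, 45.1, 54.8, 42.7 and 41.3 in Flt3-ITD, and 270, 210, 169 and 162 in wild type. It fell in each background, by 3.89 ± 0.29 in Runx1-HET, 2.57 ± 0.27 in NHD13 and 2.14 ± 0.26 in wild type, with an interaction of -1.75 ± 0.37 (adjusted p = 0.016).

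Opposition also held the monocyte-linked genes Csf1r, Irf8 and Ly86. Of 21 granulocyte-monocyte progenitor genes, 4 had a negative interaction and 0 a positive one (background 1.04% negative), with a median of -0.41. At an unadjusted p under 0.05 there were 6 negative and 1 positive, and DESeq2 called 5 negative and 0 positive. Over all 14394 tested genes these counts were 1634 and 374, both directions together. Flt3-ITD raised 1 of the 21 in the Runx1-HET background (background 6.69%) and 6 in wild type (background 3.84%). Csf1r, the receptor for macrophage colony-stimulating factor and a known RUNX1 target, had 14.5, 15.5, 25.4 and 13.2 CPM in the double mutant, 31.2, 35, 42.4 and 28 in Runx1-HET, 52.4, 59.2, 46.2 and 57.3 in Flt3-ITD, and 25.2, 32.3, 25.9 and 28.2 in wild type. Flt3-ITD libraries were the highest without overlap, and double-mutant libraries the lowest except that library 3 reached just above the lowest wild-type library. Flt3-ITD changed Csf1r by -0.99 ± 0.17 in the Runx1-HET background (adjusted p = 0.00013) and by 0.95 ± 0.17 in wild type (adjusted p = 0.00041). The interaction was -1.94 ± 0.24 (adjusted p = 1.6e-05).

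Irf8, a transcription factor of monocyte and dendritic fates, had 27.1, 32.4, 54 and 39.7 CPM in the double mutant, 28.1, 28.1, 33.6 and 26.5 in Runx1-HET, 91.6, 108, 75.9 and 85 in Flt3-ITD, and 19.1, 26.2, 23.1 and 37.2 in wild type. Flt3-ITD alone stood above the other groups, which overlapped. The Flt3-ITD difference was 0.40 ± 0.18 in the Runx1-HET background (adjusted p = 0.143), the rise was 1.78 ± 0.18 in wild type (adjusted p = 1.04e-07) and the interaction was -1.38 ± 0.25 (adjusted p = 0.00165). In NHD13 libraries Flt3-ITD raised Irf8 by 0.70 ± 0.18 (adjusted p = 0.0138). Ly86, a partner of a Toll-like receptor homologue on myeloid and B cells, was at -3.62 ± 0.58 (adjusted p = 0.000463), with 0.614 to 2.74 CPM in the double mutant, 1.61 to 5.47 in Runx1-HET, 5.74 to 12.2 in Flt3-ITD and 0.972 to 1.91 in wild type. Cd33, a sialic acid-binding receptor of myeloid progenitors and the other gene of the list that passed, belonged to synergy instead. It fell by 2.71 ± 0.17 with Flt3-ITD in the Runx1-HET background and by 1.07 ± 0.16 in wild type, with an interaction of -1.64 ± 0.23 (adjusted p = 5.99e-05). The summed level of 13 monocyte, macrophage and dendritic markers was 178 to 262 CPM in the double mutant, 58.8 to 81.5 in Runx1-HET, 94.9 to 127 in Flt3-ITD and 60.5 to 77.1 in wild type, so this sum was highest in the double mutant while Csf1r, Irf8 and Ly86 were not. Of the 11 tested members of this marker list 1, the complement gene C1qb (-2.76 ± 0.45, adjusted p = 0.000404), passed the interaction (background 1.04%). The median interaction of the 11 was -0.62. Flt3-ITD raised 2 and lowered 3 of them in the Runx1-HET background (background 6.69% and 8.18%). In wild type it raised 2 and lowered 1 (background 3.84% and 4.76%). The higher sum was therefore not a rise of the list as a whole.

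Other opposition genes with a negative interaction included Trem1, a myeloid activating receptor (-2.89 ± 0.50, adjusted p = 0.000838), and Myl4, a myosin light chain (-3.44 ± 0.48, adjusted p = 0.000137). With Flt3-ITD, Trem1 fell in the Runx1-HET background (-1.56 ± 0.36) and rose in wild type (1.32 ± 0.35). Myl4 also fell in the Runx1-HET background (-1.59 ± 0.35) and rose in wild type (1.85 ± 0.33). Myc, the growth regulator, showed a small form of this pattern. It had 518, 519, 662 and 528 CPM in the double mutant, 573, 681, 784 and 735 in Runx1-HET, 757, 932, 621 and 677 in Flt3-ITD, and 638, 538, 452 and 557 in wild type. Double mutant and wild type overlapped, and both single mutants reached higher. Its interaction was -0.77 ± 0.18 (adjusted p = 0.0237), and the call was lost in 8 of 24 alternatives, among them that without Flt3-ITD library 2 (-0.65, adjusted p = 0.0633).

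Interferon-linked genes had a negative median with few calls. Of 39 type I interferon-stimulated genes, 1 had a negative interaction, Ly6e, a membrane protein of lymphocytes and progenitors (-0.57 ± 0.15, adjusted p = 0.0373), against a background of 1.04%. At an unadjusted p under 0.05 there were 14 negative and 0 positive, and DESeq2 called 2 negative. Over all 14394 tested genes these counts were 1634 and 374, both directions together. The median interaction of the list was -0.64, from a median Flt3-ITD effect of -0.33 in the Runx1-HET background and 0.37 in wild type. Flt3-ITD raised 0 and lowered 4 of the 39 in the Runx1-HET background (background 6.69% and 8.18%), and raised 4 and lowered 0 in wild type (background 3.84% and 4.76%). The 4 lowered genes in Runx1-HET are a share near the background. Without double-mutant library 3 the count with a negative interaction was 5, and with only the 16 libraries in the fit it was 0. Ly6e was lost in 11 of 24 alternatives. Ifi209, an interferon-inducible gene with close copies and outside that list, was at -2.48 ± 0.54 (adjusted p = 0.0186).

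Opposition with a positive interaction included genes that Runx1 heterozygosity lowered in wild type, Il18r1 and Dnajc6 among them. In 18 of the 30 genes of this kind the Runx1-HET effect was the larger single effect, and in 19 both single mutants lay below wild type. By the class rule, both single mutants cannot lie above wild type in genes of this kind. Il18r1, a receptor chain for interleukin-18, had 9.77, 15.7, 12.5 and 12 CPM in the double mutant, 0.928, 1.75, 0.707 and 0.99 in Runx1-HET, 19.2, 12.9, 17 and 14.7 in Flt3-ITD, and 4.98, 2.81, 7.49 and 5.16 in wild type. The Runx1-HET effect was -0.36 ± 0.25 in the Flt3-ITD background (adjusted p = 0.43) and -2.21 ± 0.30 in wild type (adjusted p = 8.5e-05). The interaction was 1.85 ± 0.39 (adjusted p = 0.00683) on the log2 scale. In mean CPM the interaction was only 0.54, so the Flt3-ITD rise was nearly equal in both backgrounds on that scale. Il18r1 was higher than in wild type by 1.28 ± 0.26 in the double mutant and by 1.64 ± 0.26 in Flt3-ITD. Dnajc6, a co-chaperone of clathrin uncoating, had 46.4, 43.8, 42.8 and 44.4 CPM in the double mutant, 4.39, 4.47, 9.69 and 8.18 in Runx1-HET, 37.4, 29.2, 31.7 and 39.1 in Flt3-ITD, and 19.9, 18.8, 15.8 and 14.7 in wild type. Its Runx1-HET effect was 0.37 ± 0.17 in Flt3-ITD (adjusted p = 0.221) and -1.37 ± 0.19 in wild type (adjusted p = 9.78e-05), with an interaction of 1.74 ± 0.26 (adjusted p = 0.000157). It was higher than in wild type by 1.35 ± 0.18 in the double mutant and by 0.99 ± 0.18 in Flt3-ITD.

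Ltf, which encodes lactoferrin of neutrophil granules, had 25.6, 23.1, 13.9 and 25.6 CPM in the double mutant, 5.57, 3.45, 1.82 and 2.66 in Runx1-HET, 8.65, 14.7, 6.51 and 8.01 in Flt3-ITD, and 7.45, 28.6, 13.7 and 4.39 in wild type. Wild-type libraries spread widely and overlapped the double mutant. The interaction was 3.24 ± 0.59 (adjusted p = 0.00297). The 10 neutrophil markers include Ltf, so their sum is not separate from it. They summed to 35.4 to 61.3 CPM in the double mutant and 15.7 to 21.4 in Runx1-HET. The sum was 16.6 to 74.6 CPM in Flt3-ITD and 14.4 to 138 in wild type. Whether the share of neutrophils differed between groups was not tested. Camk2b, a calcium-dependent kinase subunit, was at 2.70 ± 0.56 (adjusted p = 0.00973). Hbb-bt, an adult beta-globin with a near-identical copy, was at 1.65 ± 0.29 (adjusted p = 0.00194). Its Flt3-ITD difference was 0.24 ± 0.20 in the Runx1-HET background (adjusted p = 0.485), and Flt3-ITD lowered it in NHD13 (-1.58 ± 0.21) and in wild type (-1.40 ± 0.21). The 8 erythroid markers, Hbb-bt among them, summed to 130 to 223 CPM in the double mutant, 108 to 223 in Runx1-HET, 38.8 to 45.9 in Flt3-ITD and 101 to 125 in wild type.

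Stem cell and erythroid regulators gave single genes in both directions. Of 23 stem cell genes, 3 had a positive interaction (Hlf, Ifitm1 and Mecom, background 0.646%) and 1 a negative one (Tek, background 1.04%), with a median of 0.05. Mecom, a regulator of stem cell maintenance, had 65.6, 66, 46.6 and 54.3 CPM in the double mutant, 56.9, 62.6, 55.9 and 53 in Runx1-HET, 45.8, 33.2, 47.3 and 42.9 in Flt3-ITD, and 66.2, 66.3, 76.1 and 65.1 in wild type. Flt3-ITD made a difference of 0.03 ± 0.12 in Runx1-HET (adjusted p = 0.924) and lowered it in wild type (-0.69 ± 0.12, adjusted p = 0.000195). Its interaction was 0.72 ± 0.17 (adjusted p = 0.018), and that of Hlf, a stem cell transcription factor, was 0.62 ± 0.17 (adjusted p = 0.0474), lost in 16 of 24 alternatives. Without double-mutant library 1 or 2, or Flt3-ITD library 2, the positive count was 1. Tek, the angiopoietin receptor of stem cells, was at -1.63 ± 0.35 (adjusted p = 0.0114) and fell with Flt3-ITD in Runx1-HET (-2.29 ± 0.26) and in NHD13 (-2.23 ± 0.27). Gata1, the master regulator of erythroid and megakaryocytic genes, had 5.66, 4.91, 6.93 and 5.63 CPM in the double mutant, 13.9, 21.4, 22 and 18.6 in Runx1-HET, 13.6, 12.7, 9.02 and 8.73 in Flt3-ITD, and 13.9, 8.9, 12.6 and 9.13 in wild type. It rose in Runx1-HET alone (0.76 ± 0.18, adjusted p = 0.0388) and was lowest in every double-mutant library, with an interaction of -1.70 ± 0.27 (adjusted p = 0.000335). Of 20 megakaryocyte-erythroid genes, 1 passed in each direction, Hbb-bt positive (background 0.646%) and Gata1 negative (background 1.04%).

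In the 9 saturation genes all 3 mutant groups lay on the same side of wild type, and the double mutant fell short of the sum of the single effects. Chga, a granin of secretory granules, had 7.32, 4.72, 4.43 and 5.86 CPM in the double mutant, 5.69, 4.47, 3.74 and 3.02 in Runx1-HET, 6.28, 8.28, 6.15 and 5.15 in Flt3-ITD, and 8.06, 15.1, 22 and 16.5 in wild type. The 3 mutant groups overlapped below wild type, apart from wild-type library 1, which lay within their range. Chga fell by 1.46 ± 0.25 in the double mutant, by 1.87 ± 0.25 in Runx1-HET and by 1.25 ± 0.24 in Flt3-ITD against wild type, with an interaction of 1.66 ± 0.36 (adjusted p = 0.0102). Ctsw, a cathepsin of cytotoxic lymphocytes (0.86 ± 0.20, adjusted p = 0.0158), fell by 0.68 in the double mutant, by 1.06 in Runx1-HET and by 0.48 in Flt3-ITD. Prkag2, a subunit of AMP-activated kinase, had an interaction of 0.53 ± 0.12 (adjusted p = 0.0142). Prkag2 fell by 0.42 ± 0.09 in the double mutant, by 0.52 ± 0.09 in Runx1-HET and by 0.43 ± 0.09 in Flt3-ITD. Smim6, a small membrane protein (0.89 ± 0.23, adjusted p = 0.0376), also fell in all 3 mutant groups and was lost in 14 of 24 alternatives.

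Among saturation genes with a negative interaction, Tifab, an inhibitor of TRAF6 signalling, had 118, 113, 165 and 106 CPM in the double mutant, 237, 272, 246 and 225 in Runx1-HET, 129, 255, 118 and 116 in Flt3-ITD, and 103, 60, 71.5 and 83.1 in wild type. Runx1-HET and Flt3-ITD each raised it, by 1.63 ± 0.22 and 0.96 ± 0.22. The double mutant was higher than wild type by 0.66 ± 0.22 (adjusted p = 0.0303), a smaller fitted rise than in either single mutant. It was not called different from Flt3-ITD (-0.30 ± 0.21, adjusted p = 0.453). Flt3-ITD library 2 (255 CPM) lay far above the rest of its group, which overlapped the double mutant. Flt3-ITD lowered Tifab in the Runx1-HET background (-0.96 ± 0.21, adjusted p = 0.0033). The interaction was -1.93 ± 0.30 (adjusted p = 0.000805). Pik3r6, a regulatory subunit of phosphoinositide 3-kinase gamma (-1.24 ± 0.31, adjusted p = 0.0352), Adgrg3, an adhesion receptor of granulocytes (-0.82 ± 0.20, adjusted p = 0.0324), and Fh1, the fumarate hydratase (-0.46 ± 0.12, adjusted p = 0.0448), completed the named genes of this class. Against wild type, Pik3r6 differed by 0.46 in the double mutant, 0.79 in Runx1-HET and 0.91 in Flt3-ITD. Fh1 differed by 0.27 in the double mutant, 0.30 in Runx1-HET and 0.43 in Flt3-ITD. In fitted values both lay nearest to wild type in the double mutant, but it was not called different from either single mutant. Against Runx1-HET the adjusted p was 0.358 for Pik3r6 and 0.877 for Fh1. Against Flt3-ITD it was 0.241 for Pik3r6 and 0.293 for Fh1. Adgrg3 differed by 0.52 in the double mutant, 0.48 in Runx1-HET and 0.85 in Flt3-ITD. Of 24 alternatives, Pik3r6 was lost in 11, Adgrg3 in 13 and Fh1 in 18.

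The other lists held few or no calls of the interaction. With edgeR, 0 genes passed among 30 cell cycle, 21 MHC class I and interferon-gamma-linked, 16 apoptosis, 12 HOX, 11 immediate early, 7 fetal progenitor, 6 core-binding factor and 7 endothelial and stromal genes, and 0 among 11 markers of mast cells, basophils and eosinophils. At an unadjusted p under 0.05 these lists held 5 negative MHC genes, 2 positive fetal progenitor genes and 2 negative mast cell, basophil and eosinophil markers. There were 2 positive and 1 negative endothelial and stromal genes, and the cell cycle, HOX and immediate early lists held 1 gene each. DESeq2 called 1 immediate early gene positive, 1 MHC gene negative and 0 in the other lists named here. Over all 14394 tested genes, 1634 reached an unadjusted p under 0.05 and DESeq2 called 374, both directions together. The medians over these lists ran from -1.35 for the mast cell, basophil and eosinophil markers to 1.27 for the endothelial and stromal markers. The mast cell, basophil and eosinophil markers summed to 85.1 to 116 CPM in the double mutant, 186 to 800 in Runx1-HET, 89.1 to 170 in Flt3-ITD and 340 to 987 in wild type. Of 26 RUNX1 target genes, 2 had a negative interaction (Csf1r and Rag1, background 1.04%) and 0 a positive one, with a median of -0.17. DESeq2 called the same numbers but for 1 positive, and at an unadjusted p under 0.05 there were 3 negative and 2 positive. Of 26 cytokine receptors, Il18r1 was positive (background 0.646%) and Csf1r and Il7r were negative (background 1.04%), while Flt3-ITD lowered 12 of the 26 in the Runx1-HET background (background 8.18%) and 5 in wild type (background 4.76%). Of 21 MYC and ribosome biogenesis genes, Myc itself was the 1 that passed (negative, background 1.04%). Flt3-ITD raised 1 of the 21 in the Runx1-HET background (background 6.69%) and 12 in wild type (background 3.84%), with a median interaction of -0.28. The defining T and NK cell markers Cd3e and Ncr1 were at 0 in every library of the double mutant, Runx1-HET and Flt3-ITD.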

How the data were processed

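Per the labels' protocols, libraries came from Qiagen micro-column RNA and Clontech SMART amplification. The deposited values are raw counts per Ensembl gene, and the submitters' processing notes name STAR 3.0.4, Subread and featureCounts 1.4.5. The genome build and strand setting behind the counts are not given in the sources used here. Symbols and coordinates are from GENCODE M21 (GRCm38), which matched 40254 of 41388 IDs, and promoters are from RefSeq GRCm38.p6.

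All 24 P14 libraries were fitted with edgeR 4.0.16 in R 4.3.3 (TMM, filterByExpr, robust quasi-likelihood F test, 1 mean per group, 18 residual degrees of freedom). The filter kept 14394 genes with 99.9% of the counts. Genes passed when their Benjamini-Hochberg adjusted p, taken over the 14394 genes, was under 0.05. CPM values use the same scaling. The biological coefficient of variation was 0.164, so the spread between libraries limits precision more than counting for most genes. Libraries of a group differed beyond sampling noise (chi-square per degree of freedom of at least 9.58 over 24 pairs). The classes were sorted by fitted differences without a test. The script was tested on simulated data.

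Named genes were Flt3, Runx1, in each class the 4 highest and 4 lowest interactions where mean log2 CPM reached 2, and passing list members. The genes and lists were chosen with earlier results of these data known. Alternatives were DESeq2 1.42.0, limma-voom (limma 3.58.1), other size factors, other filters, fewer libraries, a replicate block, a sex term and leaving out each library. The P0 samples are not used here, and 1 passing gene is not reported by name.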

Additional observations from a re-analysis of the deposited data

Results flagged for a closer look

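The interaction test itself marks genes whose Flt3-ITD effect differed between the Runx1-HET and wild-type backgrounds, 242 in all. Values in this section are log2 interactions, from the same test as in the results, unless given as CPM. Among synergy genes of the lymphoid lineages they were Cd79a (-8.76), Ly6d (-7.97), Il7r (-7.46), Rag1 (-6.84), Ebf1 (-6.22), Trbc2 (-4.56), Ccr9 (-3.79), Rag2 (-3.67) and Dntt (-3.19). Smaller negative values in synergy were those of C1qb (-2.76), Dusp6 (-1.75), Gata1 (-1.7), Cd33 (-1.64), Tek (-1.63), Ighm (-1.48), Satb1 (-1.09), Il12a (-0.91) and Ccnd2 (-0.51). Positive synergy values were those of Tcrg-C1 (3.06), Spp1 (2.72), Timp3 (2.54), Akr1c12 (2.29), Pim2 (1.51) and Ifitm1 (1.07). Negative opposition values were those of the B-lineage genes Igll1 (-8.53) and Vpreb1 (-4.64). They were joined by Ly86 (-3.62), Myl4 (-3.44), Trem1 (-2.89), Ifi209 (-2.48), Csf1r (-1.94), Irf8 (-1.38), Myc (-0.77) and Ly6e (-0.57). Positive opposition values were those of Ltf (3.24), Camk2b (2.7), Il18r1 (1.85), Dnajc6 (1.74), Hbb-bt (1.65), Mecom (0.72) and Hlf (0.62). In saturation the values were those of Chga (1.66), Smim6 (0.89), Ctsw (0.86), Prkag2 (0.53), Tifab (-1.93), Pik3r6 (-1.24), Adgrg3 (-0.82) and Fh1 (-0.46).

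Of 204 groups of 4 libraries, 16 (7.84%) held a library far from the other 3, where chance gives about 1 in 20. In 7 of the 16 this was Flt3-ITD library 2. It was highest for Ly6d (129 CPM), Tifab (255 CPM), Pik3r6 (21.5 CPM), Myl4 (34.9 CPM), Ighm (1040 CPM) and Ly6e (1890 CPM), and lowest for Hlf (216 CPM). Flt3-ITD library 1 was lowest for Akr1c12 (4.56 CPM). In the double mutant, library 1 was highest for Ccr9 (0.708 CPM), and library 2 was highest for Dntt (145 CPM). Library 3 of that group was highest for Myc (662 CPM) and lowest for Satb1 (38 CPM). Runx1-HET library 3 was lowest for Igll1 (9.74 CPM). In wild type, library 1 was highest for Tcrg-C1 (1.71 CPM), library 3 for Mecom (76.1 CPM) and library 4 for Vpreb1 (3.42 CPM).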

How the results depend on the processing

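The count of 242 interaction genes became 374 with DESeq2, 241 of them shared, and lay between 201 and 242 with the other fits of all libraries. With DESeq2 the positive genes numbered 152, synergy 234, saturation 21, and Runx1-HET in wild type 212. A term for Y-linked over Xist counts gave 691 genes for Flt3-ITD in wild type. Saturation was 5 with limma-voom.

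The labels' replicate numbers did not clearly pair the libraries. Of 24 same-number correlations, 3 were over 0.1, and the median was 0.0207, against -0.00835 for other numbers. Of 16 libraries, 7 correlated best with their own number. Whether the libraries were paired cannot be settled from these values. With a replicate block 223 genes passed and saturation was 4.

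Leaving out each library in turn gave 168 (without Flt3-ITD library 2) to 401 interaction genes (without double-mutant library 3), with 65 to 174 positive and 103 to 227 negative. Synergy ranged over 112 to 247, opposition over 50 to 141, saturation over 3 to 25 and masking stayed at 0. Flt3-ITD ranged over 1611 to 2450 in Runx1-HET, 853 to 1009 in NHD13 and 767 (without wild-type library 3) to 1738 in wild type. Runx1-HET ranged over 624 (without Flt3-ITD library 2) to 1621 in Flt3-ITD and 73 to 176 in wild type, and the double mutant over 2307 to 3860. The causes were not tested.

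Of 49 named genes that passed, 32 passed in all 24 alternatives and none of the 49 changed sign. The lost calls were most often Fh1, Hlf, Il12a, Smim6, Adgrg3, Ccnd2 and Timp3. Cd79a, Ly6d, Igll1, Ccr9 and Chga were lost with limma-voom alone and Ifi209 with 16 libraries in the fit alone. Mecom was lost without double-mutant library 1 or 2 or Flt3-ITD library 2. The Flt3 interaction, never called, ranged over 0 (without Runx1-HET library 4) to 0.13 (without wild-type library 4). Genes with very few counts in the double mutant have an uncertain fold change, and depth limits how low they can be read.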
